A study of Homo sapiens with 8 samples.

Results

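MIR17HG (ENSG00000215417) is the long noncoding RNA from which the 6 microRNAs of the miR-17-92 cluster are cut. It was 1 of 15469 loci with values in the deposited tables of HepG2 and LM3. Its row was found by its Ensembl identifier and its place on chromosome 13, a rule that used no values. Earlier results of these data were known when MIR17HG was chosen. Both lines are labelled as human hepatocellular carcinoma lines. RNA of each was profiled after treatment with JQ1 or with the DMSO vehicle, in a study of lncRNAs that are tied to super-enhancers. The 4 groups, each of 2 libraries and 8 in all, were vehicle-treated and JQ1-treated HepG2 and vehicle-treated and JQ1-treated LM3. No dose or duration of the JQ1 treatment is in the labels. No label says that the 2 libraries of a group came from separate cultures, so p-values speak of the spread among these libraries alone, and that spread may be technical.

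MIR17HG is transcribed by RNA polymerase II, and its primary transcript is cropped in the nucleus by Drosha into hairpins, which Dicer then trims to mature microRNAs. The locus is known as an oncogenic cluster that is amplified in lymphoma and raised in many carcinomas, liver cancer among them. The transcription factor MYC binds at its promoter and activates it, and the microRNAs in turn repress targets such as BCL2L11, CDKN1A and members of the E2F family. JQ1 occupies the acetyl-lysine pocket of BET proteins and so takes them off chromatin. MYC is among the genes best known to respond to it.

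The mature sequences are shown because they are the product for which the host is known. They are RefSeq's (GRCh38.p14), written 5′ to 3′ in genomic order along the cluster, with the seed, bases 2 to 8, in capitals.
hsa-miR-17-5p: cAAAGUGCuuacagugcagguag
hsa-miR-18a-5p: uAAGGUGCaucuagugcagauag
hsa-miR-19a-3p: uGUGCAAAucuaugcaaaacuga
hsa-miR-20a-5p: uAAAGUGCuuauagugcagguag
hsa-miR-19b-3p: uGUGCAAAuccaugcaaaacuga
hsa-miR-92a-3p: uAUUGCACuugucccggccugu
The 6 sequences carry 4 distinct seeds. The pair miR-17 and miR-20a shares AAAGUGC, and the pair miR-19a and miR-19b shares GUGCAAA, while miR-18a (AAGGUGC) and miR-92a (AUUGCAC) have seeds of their own within the cluster. Among 2370 human mature microRNA names in the RefSeq table, the seed AAAGUGC was held by 8, AUUGCAC by 6, AAGGUGC by 3 and GUGCAAA by 2. The other holders of AAAGUGC include miR-106a, miR-106b, miR-20b and miR-93, members of the paralogous clusters. The libraries held long RNA, so the levels below are those of the host and not of these microRNAs.

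On GRCh38, the build of the tables' coordinates, MIR17HG spans chr13:91347820-91354579 on the plus strand. GENCODE release 29 gives it 3 transcripts. ENST00000400282.6 has 4 exons and 931 spliced bases, ENST00000581816.1 has 3 exons and 2032 bases, and ENST00000582141.5 has 2 exons and 2845 bases. The hairpins run from MIR17 (chr13:91350605-91350688) to MIR92A1 (chr13:91351314-91351391), a span of 787 bp that begins 2.78 kb after the start of the gene and ends 3.57 kb after it. Each hairpin lies in an exon of 2 of the transcripts and in an intron of 1, ENST00000400282.6. The deposited tables give 1 value per gene, so spliced host RNA and RNA that still holds the hairpins were not separated here.

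**Figure D1:**
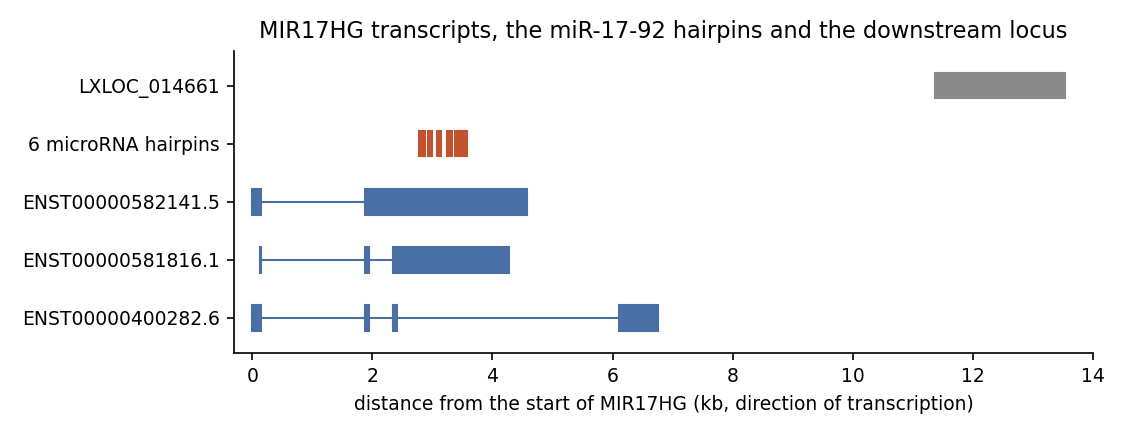
Map of MIR17HG in kb from the start of the gene, in the direction of transcription. Blue boxes are exons of the 3 GENCODE transcripts, orange boxes the 6 microRNA hairpins (2.78 to 3.57 kb), and the grey box LXLOC_014661, a locus of the authors' own that begins at 11.38 kb.

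The promoter is shown because MIR17HG is named as a MYC target and MYC binds the E-box CACGTG and variants of it. RefSeq's window of 300 bases (GRCh38.p14, most of it before RefSeq's start site, chr13:91347437-91347736, plus strand) is printed 5′ to 3′ with CACATG in capitals. Only CACGTG and the variant CACATG were searched for, and other E-box variants were not sought.
MIR17HG promoter: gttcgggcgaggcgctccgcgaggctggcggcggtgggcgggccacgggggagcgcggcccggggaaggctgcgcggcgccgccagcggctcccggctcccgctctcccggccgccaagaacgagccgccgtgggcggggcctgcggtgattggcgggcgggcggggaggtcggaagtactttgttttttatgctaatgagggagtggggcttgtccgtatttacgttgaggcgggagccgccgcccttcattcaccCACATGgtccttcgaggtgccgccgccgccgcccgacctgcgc
The window held 42 CG pairs, where the median over 35116 RefSeq promoters was 14, and 73.0% of its bases were G or C, more than in 86.4% of promoters (median 58.7%). CACGTG, searched on both strands, was not in this window and was in 7.26% of all promoters. CACATG or its complement CATGTG was found in 11.1% of promoters, and in MIR17HG it began at base 8, counted from 1 at the RefSeq start site. The window ends before the start of MIR17HG given above (91347820), and no E-box was sought outside the window. A match of letters is a description and shows no binding.

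MIR17HG was an abundant lncRNA in both lines. Levels are in FPKM, that is, fragments per length of transcript and per size of library. In HepG2 with vehicle it stood at rank 373 of the 15469 loci, above 97.6% of them and above 93.7% of the 5906 loci that were tested in this line. In LM3 with vehicle it stood at rank 292, above 98.1% of all loci and 95.5% of the 6474 tested there.

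With JQ1, the level of MIR17HG in HepG2 was about halved in FPKM. It was 8.55 and 8.37 FPKM in the vehicle libraries of replicate 1 and 2 and 4.15 and 4.35 FPKM in the JQ1 libraries. Both JQ1 libraries lay below both vehicle libraries, with a gap far wider than the spread within either group. The mean fell from 8.46 ± 0.127 FPKM to 4.25 ± 0.141 FPKM (SD, n = 2 each), so that the JQ1 mean was 50.2% of the vehicle mean. All fold changes here are on the log2(FPKM + 0.5) scale, on which changes of low loci come out too small. On it the change was -0.92 (SE 0.0756, 95% interval -1.12 to -0.72). In limma, with adjustment over the 5906 loci tested, the adjusted p was 0.00705, and the locus was called lower at the threshold of 0.05. Of all loci tested in HepG2, 25.1% were called in either direction and 14.2% were called lower. Non-overlapping groups with JQ1 below vehicle were found for 33.9% of tested loci. In bulk RNA of a line, fewer cells that hold the RNA and less of it per cell cannot be told apart. FPKM are relative to the size of the library, so a change in total RNA per cell would not show.

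In LM3 the JQ1 libraries were also lower than the vehicle libraries, with a wider spread and without a call. The vehicle libraries of replicate 1 and 2 held 12.93 and 14.38 FPKM and the JQ1 libraries 10.45 and 7.99 FPKM. The groups did not overlap, as was so with JQ1 lower for 39.7% of the 6474 loci tested. The means were 13.7 ± 1.03 FPKM with vehicle and 9.22 ± 1.74 FPKM with JQ1 (SD, n = 2 each), and the JQ1 mean was 67.5% of the vehicle mean. The log2 fold change was -0.55 (SE 0.154, 95% interval -0.97 to -0.14), with an unadjusted p of 0.0200 and an adjusted p of 0.0703 in limma. Of the loci tested in this line 23.3% were called, with 15.4% called lower; at an unadjusted p under 0.05 alone, 25.4% were lower.

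**Figure D2:**
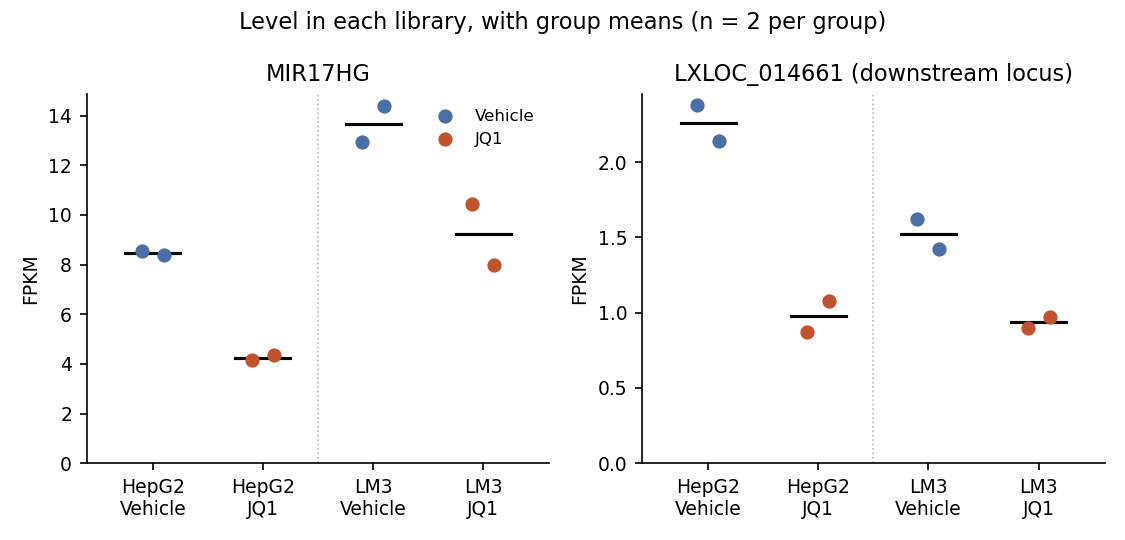
FPKM of MIR17HG (left) and of LXLOC_014661, the next locus downstream (right), in each of the 8 libraries, with bars at the means of the 2 libraries of a group. In both lines and for both loci the JQ1 libraries lie below the vehicle libraries, and the LM3 JQ1 libraries of MIR17HG (10.45 and 7.99 FPKM) are the pair farthest apart.

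The 2 JQ1 libraries of LM3 differed for MIR17HG more than replicates did at most loci. Their gap was 0.37 on the log2 scale, larger than the replicate gap of 80.5% of loci tested in LM3 and than that of 85.8% of the 534 loci within 2-fold of its level (median gap over all tested 0.158). In the LM3 vehicle group the gap was 0.148, above that of 58.3% of loci. The HepG2 gaps were small, 0.029 with vehicle and 0.061 with JQ1, above those of 12.9% and 27.1% of loci. Leaving out LM3 JQ1 replicate 1 gave a log2 fold change of -0.74, and leaving out LM3 JQ1 replicate 2 gave -0.37.

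The responses of the lines were not shown to differ. The log2 fold change in LM3 was 0.36 above that in HepG2 (SE 0.181, 95% interval -0.07 to 0.80), with an unadjusted p of 0.0882 and an adjusted p of 0.495 in the limma interaction fit over all 8 libraries. Of the 5035 loci tested in both lines, 0.218% were called in that comparison and 12.0% had an unadjusted p under 0.05. The difference was 0.18 without LM3 JQ1 replicate 1 and 0.55 without LM3 JQ1 replicate 2, and it was not called in either case.

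The HepG2 call rested on both JQ1 libraries. Without HepG2 JQ1 replicate 1 the adjusted p was 0.0811, and without replicate 2 it was 0.0788, while the log2 fold change stayed between -0.95 and -0.89 over the 4 fits that each left out 1 HepG2 library. In those 2 fits limma called 0 loci in all of HepG2 (1789 and 1714 at an unadjusted p under 0.05). An exact permutation test of MIR17HG alone gave a two-sided p of 0.333 in each line, the smallest that 2 libraries against 2 allow.

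The order of the group means was HepG2 with JQ1 (4.25 FPKM), HepG2 with vehicle (8.46 FPKM), LM3 with JQ1 (9.22 FPKM) and LM3 with vehicle (13.7 FPKM). The 2 middle groups overlapped: the HepG2 vehicle libraries, at 8.55 and 8.37 FPKM, lay between the LM3 JQ1 libraries at 7.99 and 10.45 FPKM. The lines' tables may have been normalized separately, so levels of different lines are set side by side without a test.

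MIR17HG was then set against all loci tested in each line. In HepG2, 227 of the 5906 tested loci (3.84%) had a lower log2 fold change. By p it was number 97 of 5906. The median over all tested loci was -0.01, and the middle 90% of loci ran from -0.85 to 0.68, so MIR17HG lay below that range. In LM3, 1040 of 6474 tested loci (16.1%) had a lower fold change, and MIR17HG was number 1838 by p. There the median was -0.08 and the range from the 5th to the 95th percentile -0.97 to 0.67, with MIR17HG inside it.

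**Figure D3:**
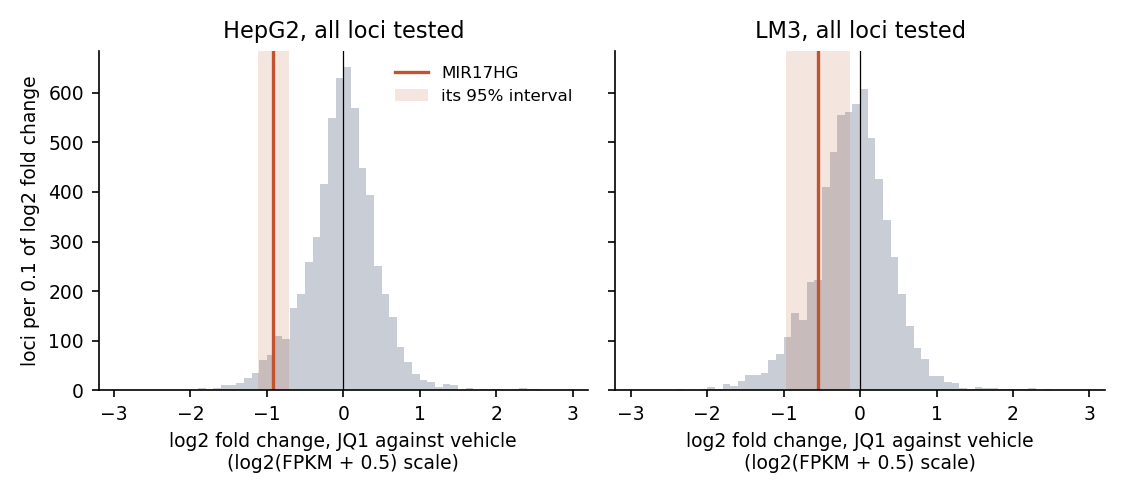
Histograms of the log2 fold change, JQ1 against vehicle, of every locus tested in HepG2 (5906, left) and LM3 (6474, right), in bins of 0.1, with MIR17HG as a vertical line and its 95% interval shaded; the outermost bins also take loci beyond them. The line stands in the lower tail in HepG2 (-0.92) and in the lower shoulder in LM3 (-0.55).

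No other locus with values overlapped MIR17HG on either strand. The nearest tested locus after it was LXLOC_014661, a locus of 2153 bp defined by the authors (chr13:91359202-91361354, plus strand) that begins 4.62 kb beyond the annotated end of MIR17HG. No GENCODE name goes with it, and the rule by which the authors defined such loci is not given in the sources used here.

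LXLOC_014661 was lower with JQ1 in both lines. In HepG2 its level was 2.38 and 2.14 FPKM with vehicle and 0.87 and 1.08 FPKM with JQ1. In LM3 it was 1.62 and 1.42 FPKM with vehicle and 0.90 and 0.97 FPKM with JQ1. The groups did not overlap in either line, as was so with JQ1 lower for 33.9% of tested loci in HepG2 and 39.7% in LM3. The HepG2 means were 2.26 ± 0.170 FPKM and 0.975 ± 0.148 FPKM (SD, n = 2 each), a log2 fold change of -0.91 (SE 0.116, adjusted p = 0.0123 in limma). The LM3 means were 1.52 ± 0.141 FPKM and 0.935 ± 0.0495 FPKM, a log2 fold change of -0.49 (SE 0.104, adjusted p = 0.0369). These fold changes stood beside -0.92 and -0.55 for MIR17HG itself. In FPKM, the JQ1 mean of LXLOC_014661 was 43.1% of the vehicle mean in HepG2 and 61.5% in LM3. For MIR17HG these shares were 50.2% and 67.5%. The LM3 call was lost in 9 of 12 alternatives (adjusted p up to 0.189) and the HepG2 call in 3 of 12 (up to 0.0841), all in the same direction. The difference between lines was 0.41 (SE 0.151) with an adjusted p of 0.368.

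The level of the downstream locus was also set against that of MIR17HG within each library, without a test. MIR17HG stood 3.59 and 3.91 times above it in the HepG2 vehicle libraries and 4.77 and 4.03 times with JQ1. In LM3 the ratio was 7.98 and 10.1 with vehicle and 11.6 and 8.24 with JQ1. The 4 HepG2 ratios thus lay below the 4 LM3 ratios. FPKM are per length, and a scale factor between the tables cancels in such a ratio. Within LM3 the vehicle and JQ1 ratios overlapped, and within HepG2 the JQ1 ratios were the 2 higher ones.

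On the other side, the nearest tested locus in HepG2 was LXLOC_014657, 483 kb before MIR17HG (chr13:90839898-90864788, plus strand). It held 0.75 and 0.51 FPKM with vehicle and 0.89 and 0.76 FPKM with JQ1, a log2 fold change of 0.24 (adjusted p = 0.286). It was listed at 0 in all LM3 libraries. In LM3 the nearest tested locus was AL445647.1 (ENSG00000272046), 3537 kb before MIR17HG on the minus strand, with 2.56 and 2.70 FPKM with vehicle and 2.04 and 1.88 FPKM with JQ1 (log2 fold change -0.35, adjusted p = 0.0595).

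Within 1 Mb, a window chosen after the values were seen, MIR17HG and LXLOC_014661 were the only tested loci of HepG2 with a lower mean level with JQ1, and in LM3 no other locus was tested. Besides these the window held 3 loci on the upstream side, LXLOC_014657, LXLOC_014658 and LXLOC_014659, none called in HepG2 (0.24, 0.09 and 0.14) and none tested in LM3. It also held 6 loci inside GPC5, a coding gene for a glypican that begins 44028 bp beyond the end of MIR17HG on the same strand and was not itself analysed here. In HepG2 all 6 were tested, with log2 fold changes from 0.26 to 0.56. Of these, 5 had JQ1 libraries above both vehicle libraries, as had 32.4% of all tested loci. The 3 called higher, against 10.8% of all tested loci, were AL162456.1 (ENSG00000282997, 0.46, adjusted p = 0.0374), LXLOC_014666 (0.56, adjusted p = 0.0383) and LXLOC_014668 (0.50, adjusted p = 0.0251). The call of each was lost in 5 of 12 alternatives. Calls were also gained: LXLOC_014667 was called higher after median centring (adjusted p = 0.0442 in limma) and quantile normalization (0.0449). LXLOC_014669 was called higher after median centring (adjusted p = 0.0488). All 6 share the strand of GPC5, so reads of its introns cannot be told apart from theirs. In LM3 they were too low to be tested, at means of 0.07 to 0.375 FPKM with vehicle and 0.14 to 0.555 FPKM with JQ1, and 5 of them again had both JQ1 libraries above both vehicle libraries (27.0% of the tested LM3 loci).

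**Figure D4:**
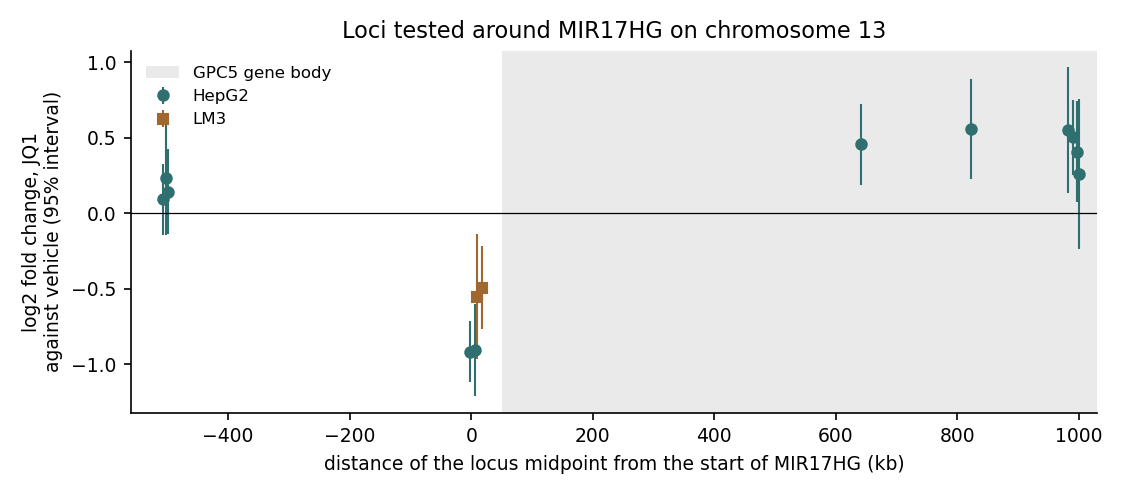
Log2 fold change with its 95% interval for each tested locus within 1 Mb of MIR17HG, by distance of the locus midpoint from the start of MIR17HG in kb; HepG2 points are drawn 6 kb to the left and LM3 points 6 kb to the right of their place so that both show. MIR17HG and LXLOC_014661, near 0 kb, are below the zero line in both lines, and the 6 HepG2 loci within GPC5 (grey) are above it.

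Other lncRNAs that carry microRNAs were compared to place MIR17HG among its kind. Of a list of 56 such hosts besides MIR17HG, 43 had values, 24 were tested in each line and 21 in both. In HepG2, 5 of 24 were called lower and 2 higher, against 14.2% and 10.8% of all tested loci, and their median log2 fold change was -0.02. In LM3, 5 of 24 were called lower and 1 higher, against 15.4% and 7.92%, with a median of -0.23. The shares were near those of all loci. A single host in HepG2, MIR99AHG, and 4 in LM3 had a lower fold change than MIR17HG.

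Hosts called lower in both lines were 4 of the 21, against 8.7% of the 5035 loci tested in both. MIR99AHG, which carries miR-99a, let-7c and miR-125b-2, went from 16.54 and 14.68 FPKM to 7.08 and 6.85 FPKM in HepG2 (log2 fold change -1.11, adjusted p = 0.00697 in limma). In LM3 it went from 6.25 and 6.77 FPKM to 1.57 and 2.47 FPKM (-1.50, adjusted p = 0.0150). MIR100HG carries the paralogous trio of miR-100, let-7a-2 and miR-125b-1. It went from 31.26 and 28.62 FPKM to 15.39 and 16.65 FPKM in HepG2 (-0.88, adjusted p = 0.00836) and from 38.04 and 39.84 FPKM to 15.17 and 17.04 FPKM in LM3 (-1.25, adjusted p = 0.00734). For both, no JQ1 library reached the level of any vehicle library of the line. The same was so for 33.9% of tested loci in HepG2 and 39.7% in LM3. The other two were MIR4435-2HG (-0.50 and -0.60, adjusted p = 0.0142 and 0.0165), a near-identical copy of CYTOR whose values are therefore uncertain, and MIR1915HG, described below. The LM3 call of MIR1915HG was lost in 3 of 8 alternatives with all libraries, which leaves 3 hosts lower in both lines there. With any 1 LM3 library left out, limma called no locus in LM3, so no call in both lines rests on fewer than all 4 LM3 libraries.

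Hosts with a call in 1 line were fewer. MIR34AHG, the host of the p53-induced miR-34a, fell in LM3 from 1.72 and 1.62 FPKM to 0.82 and 0.58 FPKM (-0.86, adjusted p = 0.0200). In HepG2 its libraries overlapped, at 2.05 and 2.11 FPKM with vehicle and 2.08 and 1.62 FPKM with JQ1, and the difference between lines had an adjusted p of 0.234. MIR4458HG was called lower in HepG2 (-0.50, adjusted p = 0.0280) and had -0.23 in LM3 (adjusted p = 0.160). Its HepG2 call was lost in limma without a filter on low values (adjusted p = 0.0645).

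Higher with JQ1 was MIRLET7BHG, the host of let-7b and let-7a-3, in both lines. It held 10.15 and 11.08 FPKM with vehicle and 16.63 and 18.56 FPKM with JQ1 in HepG2 (0.70, adjusted p = 0.0127), and 11.14 and 11.37 FPKM against 17.31 and 14.86 FPKM in LM3 (0.49, adjusted p = 0.0380). The LM3 call of MIRLET7BHG was lost without a filter on low values (adjusted p = 0.0769 in limma). A replicate block lost that call too (adjusted p = 0.0542). MIR22HG, the host of miR-22, was called higher in HepG2 (0.59, adjusted p = 0.0257) and had 0.50 in LM3 (adjusted p = 0.0888). Its HepG2 call was lost without a filter on low values (adjusted p = 0.06). Rescaling without the most abundant loci also lost it (adjusted p = 0.0506). In LM3 every call among these hosts was lost when 1 library was left out, as 0 loci of that line were called by limma then (1605 to 2366 at an unadjusted p under 0.05).

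The 13 hosts tested in both lines without a call in either were H19, MIR31HG, MIR503HG, MIR181A2HG, MIR222HG, MIR924HG, MIR193BHG, MIRLET7A1HG, MIR600HG, MIR3936HG, MIR4500HG, FTX and DLEU2. DLEU2, the host of miR-15a and miR-16-1, lies on chromosome 13 like MIR17HG. It held 6.13 and 4.64 FPKM with vehicle and 6.37 and 6.30 FPKM with JQ1 in HepG2 (0.23, adjusted p = 0.300), and 6.12 and 6.07 FPKM against 7.03 and 6.59 FPKM in LM3 (0.15, adjusted p = 0.256). The uncalled hosts had log2 fold changes of -0.47 (MIR3936HG) to 0.23 (MIR600HG) in HepG2 and, among LM3 values, of -0.44 (MIR3936HG) to 0.50 (MIR22HG). A further 6 hosts were tested in 1 line and not called, MIR137HG, MIR646HG and MIR181A1HG in HepG2 and MIR3667HG, MIR29B2CHG and MIR210HG in LM3. The 16 tested in neither line had group means of at most 0.325 FPKM.

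**Figure D5:**
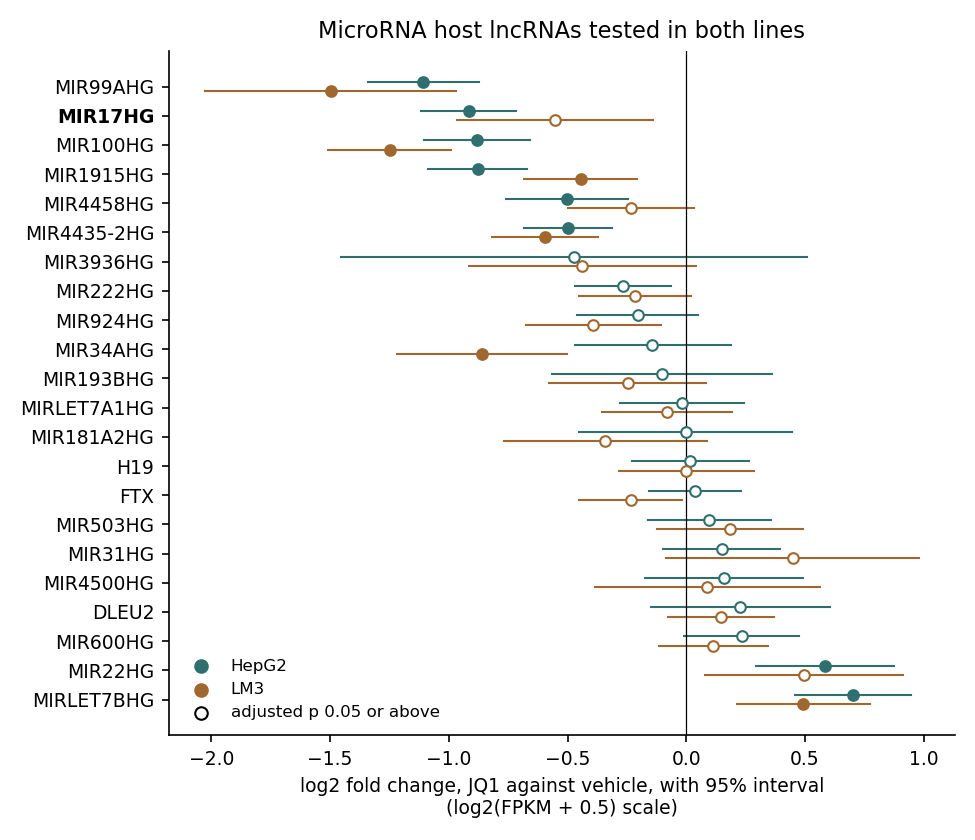
Log2 fold change, JQ1 against vehicle, with 95% intervals for MIR17HG and the 21 other microRNA hosts tested in both lines, in order of the HepG2 value; filled points have an adjusted p under 0.05 in limma. MIR17HG is filled in HepG2 (-0.92) and open in LM3 (-0.55), and MIR99AHG, MIR100HG, MIR1915HG and MIR4435-2HG are filled and below 0 in both lines.

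LncRNAs linked to MYC in general knowledge were described next, since MIR17HG is known as a MYC target; MYC itself is a coding gene and was not analysed here. Of 20 in the list, 18 had values, 15 were tested in HepG2 and 16 in LM3. In HepG2, 5 of 15 were called lower and 2 higher, with a median log2 fold change of -0.13. In LM3, 3 of 16 were called lower and 2 higher, with a median of -0.13. Over all tested loci 14.2% and 15.4% were lower, 10.8% and 7.92% higher, and the medians were -0.01 and -0.08.

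The MYC-linked lncRNAs called lower in both lines were 2 of the 15 tested in both (8.7% of all loci tested in both), and these lie with MYC on 8q24. Not every tested member on chromosome 8 was called lower in both lines. PCAT1 had 0.20 in HepG2 (adjusted p = 0.248 in limma) and -0.40 in LM3 (adjusted p = 0.125), and MINCR, described below, was not called in LM3. PVT1, the neighbour of MYC, went from 89.69 and 92.47 FPKM to 55.11 and 57.98 FPKM in HepG2 (-0.68, adjusted p = 0.00873 in limma). In LM3 it went from 81.80 and 84.14 FPKM to 50.49 and 50.78 FPKM (-0.71, adjusted p = 0.0110). CASC19 went from 36.46 and 35.12 FPKM to 13.66 and 16.12 FPKM in HepG2 (-1.24, adjusted p = 0.00705) and from 320.98 and 340.40 FPKM to 248.02 and 257.85 FPKM in LM3 (-0.39, adjusted p = 0.0355). The LM3 call of CASC19 was lost in 4 of 8 alternatives with all libraries. Among these were no filter on low values (adjusted p = 0.0696 in limma) and centring on the median (adjusted p = 0.0523). Of PVT1 and CASC19, only PVT1 was called in both lines in those 4 alternatives. The CASC19 difference between lines was 0.86 with an adjusted p of 0.0973, and it was called in 2 of 16 alternatives, with libraries centred on their median (0.93, adjusted p = 0.0457) and after rescaling without the most abundant loci (0.96, adjusted p = 0.0437). MIR17HG, at -0.92 and -0.55, lay between PVT1 and CASC19 in HepG2 and also in LM3.

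SNHG15 (-0.60, adjusted p = 0.0110), SNHG16 (-0.38, adjusted p = 0.0236) and MINCR, a lncRNA induced by MYC (-0.42, adjusted p = 0.0424), were called lower in HepG2. The MINCR call was lost in 3 of 8 alternatives with all libraries (adjusted p 0.0516 to 0.0921) and that of SNHG16 in 1 of 8, and both were lost with any 1 HepG2 library left out. In LM3 their values were -0.18, -0.23 and -0.14 without a call, and their differences between lines were not called (adjusted p 0.223 to 0.636). LINC01123 was called lower in LM3 (-0.96, adjusted p = 0.0368) and had -0.57 in HepG2 (adjusted p = 0.0863). With a replicate block it was called lower in HepG2 too (adjusted p = 0.0226 in limma). Higher with JQ1 were the snoRNA host SNHG12 in both lines (0.40 and 0.48, adjusted p = 0.0216 and 0.0230), MIR22HG in HepG2, as given above, and SNHG7 in LM3 (0.51, adjusted p = 0.0251). SNHG7 had 0.02 in HepG2, a value whose sign turned in 3 alternatives. The HepG2 call of SNHG12 was lost in 5 of 12 alternatives, among them no filter on low values (adjusted p = 0.0501 in limma). Without that filter the LM3 calls of LINC01123 (adjusted p = 0.072) and SNHG7 (adjusted p = 0.0507) were lost too. The remaining 8 in HepG2 and 11 in LM3 were not called.

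The loci whose profile was nearest to that of MIR17HG were sought among 533 named lncRNAs with at least 1 FPKM on average in both tables. Likeness was the root mean square difference over the 8 libraries of log2(FPKM + 0.5), after each table was centred on the gene's own mean. The median over the candidates was 0.369. The first 6 were MIR1915HG (0.0849), MCM3AP-AS1 (0.0969), ZNF407-AS1 (0.0971), LINP1 (0.107), HEIH (0.109) and TNS2-AS1 (0.110). LXLOC_014661, which has no symbol and so was no candidate, had 0.14 and was number 67 among the 5035 loci tested in both lines.

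MIR1915HG, the host of miR-1915, held 3.3 and 3.35 FPKM with vehicle and 1.57 and 1.59 FPKM with JQ1 in HepG2, and 3.13 and 3.2 FPKM against 2.29 and 2.10 FPKM in LM3. Its log2 fold changes, -0.88 (adjusted p = 0.00797) and -0.44 (adjusted p = 0.0338), were close to those of MIR17HG, with replicates that lay closer together. LINP1, a lncRNA of DNA end joining, held 3.0 and 3.05 FPKM against 1.29 and 1.45 FPKM in HepG2 (-0.92, adjusted p = 0.00838). In LM3 it held 3.19 and 3.17 FPKM against 2.12 and 2.14 FPKM (-0.48, adjusted p = 0.0243). HEIH, a lncRNA first described as raised in hepatocellular carcinoma, held 8.52 and 8.55 FPKM against 4.84 and 4.76 FPKM in HepG2 and 4.97 and 5.0 FPKM against 3.08 and 2.29 FPKM in LM3 (-0.77 and -0.80). In both lines the JQ1 libraries of these 3 lay below the vehicle libraries. Over all tested loci this was so for 33.9% in HepG2 and 39.7% in LM3.

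MCM3AP-AS1 had log2 fold changes of -0.74 and -0.48, ZNF407-AS1 of -0.83 and -0.64, and TNS2-AS1 of -0.94 and -0.52, in HepG2 and LM3. These are antisense genes, and reads of their coding partners cannot be told apart from theirs, since no strand setting is given. All 6 neighbours in profile were called lower in both lines, where 8.7% of the 5035 loci were, and MIR17HG itself was not called in LM3. Their LM3 calls lay near the threshold: of 8 alternatives with all libraries, MIR1915HG and MCM3AP-AS1 lost the call in 3, ZNF407-AS1 and TNS2-AS1 in 2, and LINP1 and HEIH in 1. They were picked on these same libraries, so their direction follows from the choice.

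The FPKM of all loci summed to between 29369 and 32765 in the HepG2 libraries and between 34066 and 35742 in LM3, and 11230 to 12332 loci were above 0 in a library. A few very abundant loci took a larger share of the sum with JQ1: 14 loci held 33.1% and 33.8% in the HepG2 vehicle libraries and 36.7% and 36.3% with JQ1, and 19 loci held 29.6% and 29.9% against 32.0% and 33.1% in LM3. After rescaling each library to the sum without these loci, MIR17HG was still called in HepG2 and still not called in LM3. Of 8 liver lncRNAs, 6 had values. H19, a fetal liver lncRNA, was at 2037.71 to 2248.65 FPKM in HepG2 and 309.70 to 348.05 FPKM in LM3, and the locus named HULC was at most at 0.80 FPKM. That locus spans chr6:8435568-9294133, so its value need not be that of the HULC transcript alone. CPS1-IT1 fell with JQ1 from 6.84 and 6.79 FPKM to 1.33 and 1.22 FPKM in HepG2 and from 1.34 and 1.41 FPKM to 0.41 and 0.26 FPKM in LM3 (log2 fold changes -2.04 and -1.17, adjusted p = 0.00262 and 0.0119 in limma). Of the 4 liver lncRNAs tested in HepG2, 2 were called lower and 0 higher; of the 3 tested in LM3, 1 was called lower and 0 higher. The other one called lower in HepG2 was LINC01485, at 0.98 and 0.94 FPKM with vehicle and 0.28 and 0.46 FPKM with JQ1 (-0.76, adjusted p = 0.0242); in LM3 it was at most at 0.05 FPKM. LINC02428 held 0.49 and 0.63 FPKM with vehicle and 0.18 and 0.24 FPKM with JQ1 in HepG2, and 0.63 and 0.50 FPKM against 0.31 and 0.45 FPKM in LM3. LINC01554 lay the other way, at 0.21 and 0.21 FPKM with vehicle and 0.30 and 0.31 FPKM with JQ1 in HepG2, and at 0.15 and 0.14 FPKM against 0.25 and 0.18 FPKM in LM3. Both were too low to be tested. Because H19 made up nearly all of it, the sum over the liver list shows little of the other members. This sum was 2047 to 2258 FPKM with vehicle and 2104 to 2237 FPKM with JQ1 in HepG2; the LM3 sums were 313 to 350 FPKM and 311 to 350 FPKM. Of 6 lncRNAs of blood, muscle and neural cells, 2 had values, MYOSLID and MIR124-1HG, which together reached at most 0.28 FPKM in any library. What part the marker values have in the MIR17HG result was not tested.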

How the data were processed

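Per the labels' protocols, total RNA of HepG2 and LM3 was rid of ribosomal RNA and sequenced in paired ends. The authors deposited FPKM, per the file headers, rounded to 2 decimals, in 1 table per line with the same 23161 loci; 7692 with dashes in place of values were left out. The submitters' processing notes name, without a role, Bowtie 0.12.2, hg19 and mm8, yet the coordinates are those of GRCh38: 8453 Ensembl loci were matched to GENCODE release 29, 99.9% with the chromosome and 83.9% with the start unchanged. Not given in the sources used here are the counting tool, annotation, strand setting and fragment totals. At the best of many step sizes tried, 35.7% to 44.5% of the low values of short loci lay within 0.1 of a whole-fragment step. An even spread gives 20% for 1 fixed step and more for the best of many. Most of these values thus lay off the steps, so counts were not recovered, and only the spread among libraries measures precision.

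JQ1 was compared with vehicle within each table in limma 3.58.1 (R 4.3.3, trend and robust fitting, two-sided) on log2(FPKM + 0.5), keeping loci whose 4 libraries averaged 0.5 FPKM or more, with Benjamini-Hochberg adjustment over all loci tested and a threshold of 0.05. The difference between lines was an interaction contrast over 8 libraries for loci tested in both. The steps were tested on simulated data with a log2 change of 1: 64.3% of 199 changed loci were recovered in HepG2 (5871 loci), 51.5% of 198 in LM3 (6361 loci) and 69.1% of 324 for the difference (4949 loci). Unchanged loci that were called numbered 5, 9 and 20. In each line far fewer loci were changed in the simulation than were called in the real data. Other pseudocounts, filters and scalings, limma without trend or robust fitting, a replicate block and leaving out each library were tried as alternatives. Text and figures used Python 3.11.15, pandas 2.3.3, NumPy 2.4.6, SciPy 1.17.1 and matplotlib 3.10.9.

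Named genes were MIR17HG, the microRNA hosts tested, the MYC-linked lncRNAs tested (values for those called), the nearest tested locus on each side of MIR17HG and the 6 loci nearest in profile. PCAT1, which was not called, was given values too. The loci within 1 Mb were named after their values were seen. MIR17HG and the lists were chosen with earlier results of these data known.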

Additional observations from a re-analysis of the deposited data

How the results depend on the processing

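MIR17HG kept its direction in both lines under every alternative run. In HepG2 it was called in all 8 alternatives with all libraries (log2 fold change -0.98 to -0.85, adjusted p 0.00365 to 0.0194) and, with 1 library left out, in 2 of 4 (-0.946 to -0.885, adjusted p 0.0407 to 0.0811). In LM3 it was called in none (-0.57 to -0.47, adjusted p 0.0691 to 0.125, and -0.74 to -0.37, adjusted p 0.0737 to 0.281, with 1 library left out), and the difference between lines in none (0.32 to 0.46, adjusted p 0.381 to 0.606, and 0.18 to 0.55, adjusted p 0.206 to 0.689). Counts of called loci moved more. Without a filter on low values they were 852 in HepG2, 857 in LM3 and 94 for the difference, where more loci were tested. The difference also gave 7 with a pseudocount of 0.1, 19 with 1, 20 with libraries centred on their median, 5 with quantile normalization and 18 after rescaling without the most abundant loci, an alternative chosen after seeing the data. With 1 library left out limma called 0 to 519 loci in HepG2, 0 to 0 in LM3 and 0 to 3 for the difference (at least 1714, 1605 and 427 at an unadjusted p under 0.05), with fewer samples in each fit. Calls in LM3 were 513 higher and 998 lower, but 700 and 770 after median centring and 715 and 732 after quantile normalization. Among the other named loci, 440 of 488 values with all libraries kept direction and call, 36 lost the call, 6 gained it and 6 turned sign; with 1 library left out 139 of 276 kept both, 134 lost the call and 3 turned sign. The sign turned for SNHG7 in HepG2 (quantile -0.134, rescaled -0.00454, without vehicle replicate 1 -0.056), for MIR34AHG in HepG2 (9.75e-05 without JQ1 replicate 2, with -0.283 as the other end of the range over libraries left out) and for the difference of HEIH (pseudocount 1 0.00919, centred 0.045, quantile 0.10, rescaled 0.065, without LM3 JQ1 replicate 2 0.154, with -0.206 as the other end). The cause of these turns was not tested. The labels give no pairing for replicate numbers, and deviations of same-numbered libraries correlated at -0.0345 in HepG2 and 0.135 in LM3 over loci. With a replicate block the log2 fold changes of MIR17HG were -0.92 (adjusted p = 0.00365) and -0.55 (adjusted p = 0.0894) and their difference 0.36 (adjusted p = 0.606), and limma called 1453 loci in HepG2, 1215 in LM3 and 0 for the difference (505 at an unadjusted p under 0.05). The block also lost the LM3 call of MIR1915HG (adjusted p = 0.0589), MCM3AP-AS1 (0.0658), ZNF407-AS1 (0.0522) and TNS2-AS1 (0.0504) and the HepG2 call of SNHG16 (0.0579).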

Other observations

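MIR122HG, the host of the liver microRNA miR-122, was looked at after its values were seen, as a liver counterpart of MIR17HG. It was near 0 in every library, at 0.04 and 0.08 FPKM with vehicle and 0.04 and 0.08 FPKM with JQ1 in HepG2, and at 0.13 and 0.12 FPKM with vehicle and 0.06 and 0.06 FPKM with JQ1 in LM3, too low to be tested. MIR17HG, at 4.15 FPKM or more in all 8 libraries, was thus the far more abundant of the 2 hosts in both lines. Among all 65 other symbols of the form MIR...HG with values, whether or not they were in the list of hosts, 26 were tested in HepG2, with 6 called lower and 2 higher, and 27 in LM3, with 5 called lower and 1 higher. Over all loci tested, 14.2% were called lower and 10.8% higher in HepG2, and 15.4% and 7.92% in LM3. The medians of these symbols were -0.12 in HepG2 and -0.22 in LM3, beside -0.01 and -0.08 over all loci tested. The call not among the listed hosts was MIR762HG in HepG2, at 1.82 and 1.69 FPKM with vehicle and 1.01 and 1.05 FPKM with JQ1 (log2 fold change -0.56, adjusted p = 0.0195 in limma).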
